A study of Mus musculus with 10 samples.

Results

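The proteasome subunit genes were compared in the gastrocnemius, a calf muscle of mostly fast fibres, of 5 control and 5 carnitine-fed mice. Members were the genes whose probe set carries exactly 1 symbol made of Psma, Psmb, Psmc, Psmd, Psme, Psmf or Psmg and a number. This took 47 of 22180 genes, 1 probe set each, and for the 3 members with several probe sets the brightest was used. Psma4 shares both of its probe sets with another gene and is not among them. All mice were male NMRI, an outbred stock, and their muscle RNA was hybridised to Affymetrix Mouse Gene 2.0 ST arrays, 1 array per mouse. Control mice ate a basal diet of cereals and soybean meal with less than 5 mg carnitine per kg, and carnitine mice ate it with 1000 mg L-carnitine per kg added. Feeding began after 1 week of acclimatisation from an age of 3 weeks, and the 60 mice were killed at 9, 15 or 18 months, 10 of each diet at a time. The labels do not give the age of the mice on the arrays, although the title speaks of advanced age. The mice lived in cages of 5, and which mice shared a cage is not given.

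The proteasome is the cell's main protease for proteins tagged with ubiquitin. Its barrel-shaped core holds outer alpha rings and inner beta rings with the active sites, and a cap with a base of ATPases and a lid recognises, unfolds and feeds in the substrate. In muscle this system breaks down myofibrillar proteins, and its genes are known to be induced together in atrophy. Under interferon the constitutive active subunits Psmb6, Psmb7 and Psmb5 can be replaced by Psmb9, Psmb10 and Psmb8, which makes the immunoproteasome.

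Values are deposited log2 signals, and differences are carnitine minus control. A level cannot be set against that of another gene, because each probe set has its own affinity. In bulk tissue, fewer cells of a type and less RNA per cell cannot be told apart. The 9 skeletal muscle markers were bright on all 10 arrays, with a mean over the list from 13.12 to 13.23. Control replicate 5 stood apart from the other arrays. Its interquartile range was 2.20 against 2.39 to 2.59 on the others, and among genes brighter than 8 it was the lowest control in 57.4%. Values without it are given beside most counts and beside the members it moves by over 1.5 times. All 7 slow-fibre markers had a negative difference (median -1.19), with list means from 9.12 to 10.12 in control and from 6.74 to 9.92 in carnitine. Of the other marker lists, 5 of 5 fibroblast, 4 of 7 endothelial and 2 of 5 adipocyte genes had a positive difference, and 0 passed the threshold. Without control replicate 5 these counts were 5, 3 and 1, and they were the same after cyclic loess. The part of fibre or cell composition in the values of the proteasome genes was not tested.

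None of the 47 members passed the limma threshold of an adjusted p of 0.05, as was true of all 22180 genes (0% called). At an unadjusted p below 0.05, 8 members were higher in carnitine (17.0%, against 3.14% of all genes) and 0 lower (against 3.83%). Of the 47 members, 38 had a positive difference (80.9%, against 47.5% of all genes), and the median difference was 0.098 against -0.008 over all genes. All 5 carnitine mice lay above all 5 controls in 4 members, Psmg2, Psmd6, Psmd14 and Psmc2, or 8.51% of members against 0.505% of all genes, and no member showed the reverse (0.609% of all genes).

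The signal level of the genes moved with these counts. In the deposited values the median difference of all genes ran from -0.074 at levels of 4 to 4.5 to 0.107 at levels of 9 to 9.5. Of 3718 genes with a mean above 8, a level chosen after the values were seen, 82.2% had a positive difference, their median was 0.096, and 8.31% were higher at an unadjusted p below 0.05. Of the 30 members above that level, 29 had a positive difference (96.7%), with a median of 0.134, and 6 were higher at an unadjusted p below 0.05 (20%). In 1.32% of the bright genes, and in 3 of these 30 members (10%), all carnitine mice lay above all controls. After cyclic loess, which removes a level-dependent shift between arrays, 27 members had a positive difference (57.4%, against 50.7% of all genes and 48.8% of bright genes), with a median of 0.0186. After that step 4 members were still higher at an unadjusted p below 0.05 (8.51%, against 2.85% of all genes), and 3 had groups that did not overlap (6.38%, against 0.496%). Without control replicate 5 the median was 0.0535, with 40 members positive (85.1%, against 51% of all genes and 70% of bright genes), 6 of them higher at an unadjusted p below 0.05 (12.8%, against 2.56% of all genes), and 4 not overlapping (8.51%, against 0.784%).

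**Figure D1:**
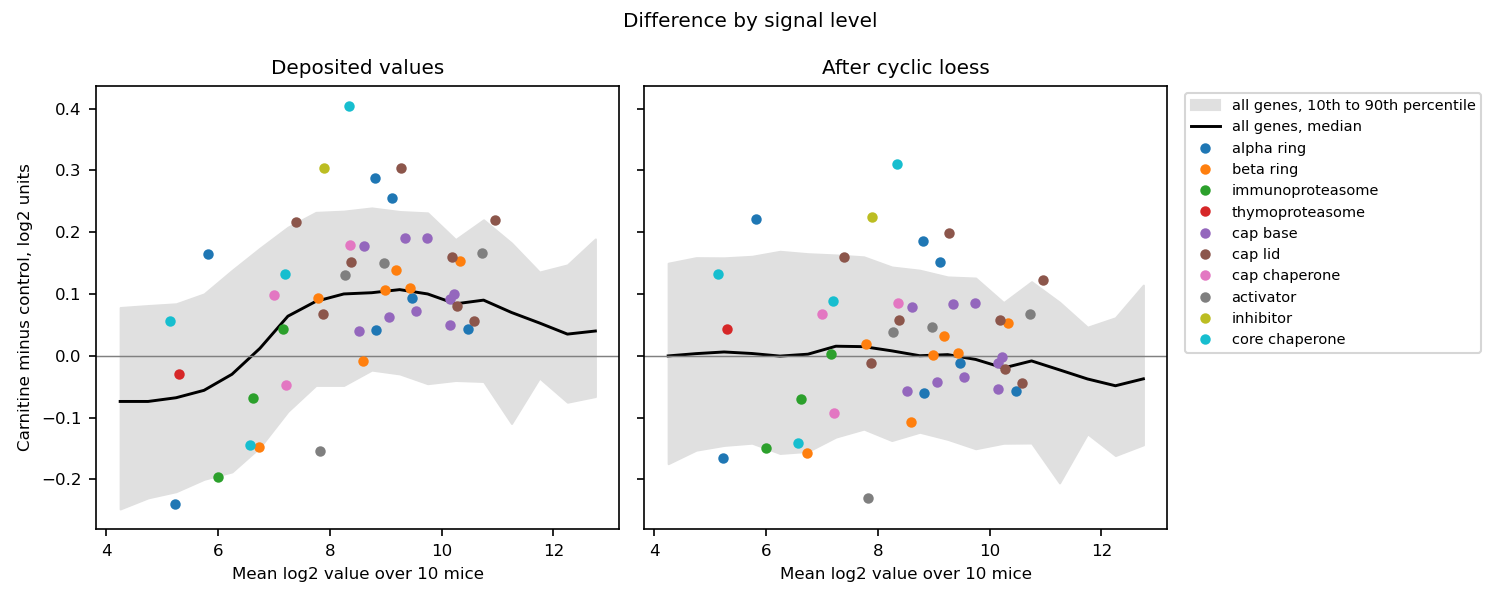
Difference between carnitine and control in log2 units against the mean log2 value over the 10 mice, with each proteasome subunit gene as a point coloured by role, the median of all genes as a line and their 10th to 90th percentile as a band. In the deposited values the line climbs from -0.074 in dim genes to 0.107 at levels of 9 to 9.5 and the members scatter around it; after cyclic loess the line lies near 0 and 27 of 47 members lie above 0.

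The members with the clearest separation belonged to the cap and to the chaperones that build the core. Promoters of 39 members, 42 windows in all, are in the RefSeq table (GRCm38.p6, from 250 bases before to 50 after the start). Not in it were Psma8, Psmb1, Psmb2, Psmb7, Psmc3, Psmd3, Psmd7 and Psmg2. Windows of 5 members, written 5′ to 3′ on the gene's strand, stand here as examples of genes whose groups did not overlap (Psmd6 and Psmd14), the pair of active subunits with the largest shift (Psmb6 and Psmb9), or the interferon element (Psme1). Psmc2, whose groups did not overlap either, has 2 windows, 1 with a CCAAT match, which are not printed. Capitals mark matches on either strand to the core of the antioxidant response element bound by Nfe2l1 and Nfe2l2 (TGACNNNGC), the CCAAT box bound by NF-Y (CCAAT), and an interferon-stimulated element (GAAA, any 2 bases, GAAA).
Psmd6: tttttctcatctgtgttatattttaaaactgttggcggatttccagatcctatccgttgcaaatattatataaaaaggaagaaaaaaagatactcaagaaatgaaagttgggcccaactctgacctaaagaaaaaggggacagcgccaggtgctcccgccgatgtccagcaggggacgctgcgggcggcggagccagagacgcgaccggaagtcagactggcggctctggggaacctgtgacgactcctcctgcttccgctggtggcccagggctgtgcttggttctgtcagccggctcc
Psmd14: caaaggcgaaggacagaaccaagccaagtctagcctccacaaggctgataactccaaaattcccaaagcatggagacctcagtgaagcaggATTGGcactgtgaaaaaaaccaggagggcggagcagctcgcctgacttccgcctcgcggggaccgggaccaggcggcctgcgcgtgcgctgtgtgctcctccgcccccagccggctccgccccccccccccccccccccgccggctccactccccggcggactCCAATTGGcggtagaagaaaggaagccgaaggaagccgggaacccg
Psmb6: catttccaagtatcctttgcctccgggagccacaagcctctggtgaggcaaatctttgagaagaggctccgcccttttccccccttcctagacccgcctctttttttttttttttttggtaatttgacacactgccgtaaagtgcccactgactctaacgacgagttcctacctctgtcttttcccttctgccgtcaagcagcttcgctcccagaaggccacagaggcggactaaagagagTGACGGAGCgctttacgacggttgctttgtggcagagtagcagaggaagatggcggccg
Psmb9: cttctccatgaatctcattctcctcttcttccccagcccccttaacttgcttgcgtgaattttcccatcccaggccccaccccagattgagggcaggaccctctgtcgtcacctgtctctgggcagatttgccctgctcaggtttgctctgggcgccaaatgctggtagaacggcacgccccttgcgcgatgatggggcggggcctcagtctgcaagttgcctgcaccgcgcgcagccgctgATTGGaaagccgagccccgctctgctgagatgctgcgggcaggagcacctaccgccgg
Psme1: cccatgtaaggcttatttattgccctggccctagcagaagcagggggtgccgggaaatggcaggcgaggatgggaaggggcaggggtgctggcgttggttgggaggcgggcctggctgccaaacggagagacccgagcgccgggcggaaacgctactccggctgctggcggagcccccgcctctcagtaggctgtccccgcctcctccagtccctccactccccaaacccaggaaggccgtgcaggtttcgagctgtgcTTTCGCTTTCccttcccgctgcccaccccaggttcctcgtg
These windows lie at chr14:14120896-14121195 (minus strand), chr2:61711444-61711743 (plus), chr11:70525107-70525406 (plus), chr17:34187281-34187580 (minus) and chr14:55578244-55578543 (plus). The Psmd6 window holds no match, that of Psmd14 holds 3 CCAAT matches, of which a pair overlaps on opposite strands, that of Psmb6 holds 1 antioxidant core, that of Psmb9 holds 1 CCAAT match and that of Psme1 holds 1 interferon element. Over the 42 member windows the antioxidant core was found in 14.3%, against 12.4% of all 32851 windows of this length. CCAAT was found in 33.3% of member windows against 37.4%, and the interferon element in 11.9% against 3.44%. The latter was found in Psmb3, Psmd4, Psmd9, Psme1 and Psmg4, and in none of the windows of Psmb8, Psmb9 and Psmb10. The 6 members with an antioxidant core were Psmb5, Psmb6, Psmc6, Psmd9, Psmd12 and Psme4, and their differences ran from -0.048 in Psmd9 to 0.17 in Psme4. A match describes letters in these windows and shows no binding.

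Of the cap, all 17 measured genes of the base and lid had a positive difference in the deposited values (median 0.10), against 47.5% of all genes and 82.2% of genes brighter than 8. After cyclic loess 8 of the 17 remained positive (47.1%, against 50.7% of all genes), with a median of -0.0025. After median centring all 17 were positive (median 0.15), against 91.3% of genes brighter than 8. The shared direction thus depends on which scaling is used. Without control replicate 5 all 17 were positive, with a median of 0.0755. The lid showed the larger values.

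Psmd6, a lid subunit (Rpn7), measured 9.19, 9.20, 9.32, 9.04 and 8.85 in control replicates 1 to 5 and 9.39, 9.47, 9.49, 9.39 and 9.38 in carnitine replicates 1 to 5. Every carnitine mouse lay above every control, and control replicate 5 was the lowest of the 10. Controls averaged 9.12 ± 0.18 and carnitine mice 9.42 ± 0.05 (SD, n = 5 each), and the difference was 0.30 (SE 0.092), 1.23-fold, with a limma adjusted p of 0.712. The difference was 0.20 after cyclic loess and 0.24 without control replicate 5.

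Psmd14 encodes Rpn11, the deubiquitinase of the lid that removes the ubiquitin chain before degradation. It measured 7.23, 7.40, 7.36, 7.32 and 7.10 in control replicates 1 to 5 and 7.44, 7.62, 7.47, 7.47 and 7.49 in carnitine replicates 1 to 5. The groups did not overlap, although the highest control and the lowest carnitine mouse differed little. The difference was 0.22 (SE 0.085, limma adjusted p 0.712), 0.16 after cyclic loess and 0.17 without control replicate 5.

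Psmd7, its non-catalytic partner Rpn8 in the lid, measured 10.63, 11.08, 10.93, 10.73 and 10.84 in control replicates 1 to 5 and 11.00, 11.07, 11.06, 10.99 and 11.19 in carnitine replicates 1 to 5. Here control replicate 2 reached into the carnitine range. The difference was 0.22 (SE 0.090, limma adjusted p 0.712), 0.12 after cyclic loess and 0.22 without control replicate 5. The other lid genes differed by 0.056 in Psmd8, 0.068 in Psmd13, 0.080 in Psmd11, 0.15 in Psmd3 and 0.16 in Psmd12, and the signs of Psmd8, Psmd11 and Psmd13 turned after cyclic loess. Psmd3 differed by 0.076, Psmd11 by 0.0055 and Psmd13 by 0.011 without control replicate 5. In Psmd12, the lid subunit Rpn5, 4 of 5 carnitine mice lay above every control, and its difference was 0.057 after cyclic loess.

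In the base, the ATPase genes Psmc1 and Psmc2 had the largest differences, both 0.19. Psmc2 (Rpt1) measured 9.74, 9.64, 9.75, 9.69 and 9.44 in control replicates 1 to 5 and 9.79, 9.89, 9.87, 9.86 and 9.80 in carnitine replicates 1 to 5. Its groups did not overlap, and the gap was narrow, from 9.75 in the highest control to 9.79 in the lowest carnitine mouse. The difference had an SE of 0.080 and a limma adjusted p of 0.712, and it was 0.085 after cyclic loess and 0.14 without control replicate 5. A dimmer second probe set of Psmc2 had overlapping groups and measured 6.82, 6.42, 6.85, 6.09 and 6.37 in controls and 6.67, 6.55, 6.63, 6.64 and 6.50 in carnitine mice. The groups of Psmc2 also overlapped after cyclic loess and when its probe sets were averaged.

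Psmc1 (Rpt2) measured 9.37, 9.18, 9.37, 9.25 and 9.12 in control replicates 1 to 5 and 9.55, 9.48, 9.47, 9.44 and 9.30 in carnitine replicates 1 to 5. Carnitine replicate 5 lay inside the control range, and the other carnitine mice lay above it. The difference had an SE of 0.083 and a limma adjusted p of 0.712, and it was 0.084 after cyclic loess and 0.16 without control replicate 5. The other 4 ATPase genes differed by 0.040 in Psmc3, 0.050 in Psmc6, 0.072 in Psmc4 and 0.18 in Psmc5, and the first 3 of these turned negative after cyclic loess. Without control replicate 5, at 8.02 in Psmc5 against 8.49 to 8.72 in the other controls, the Psmc5 difference was 0.0535 and that of Psmc3 0.0235. The scaffold genes Psmd1 (0.10) and Psmd2 (0.092) and the ubiquitin receptor gene Psmd4 (0.062) also turned negative after cyclic loess, and Psmd4 was 0.0265 without control replicate 5.

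**Figure D2:**
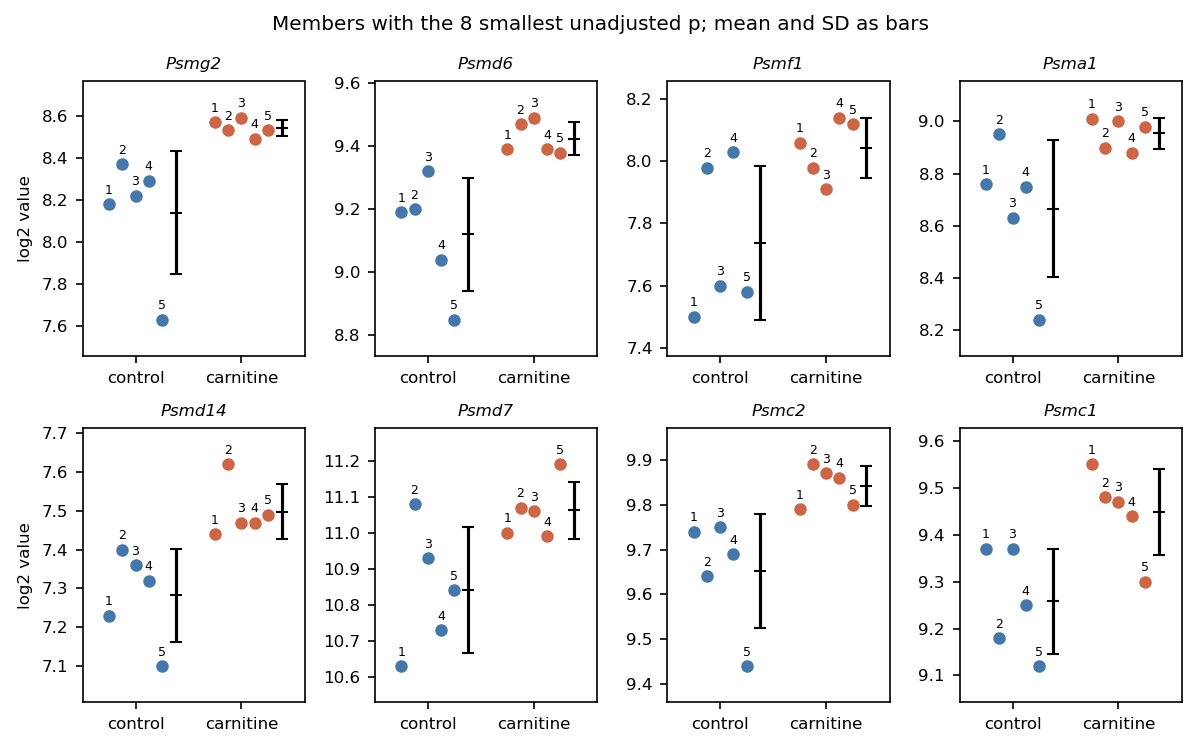
Deposited log2 value in each mouse (points, numbered by replicate) for the 8 members with the smallest unadjusted p, with the group mean and SD as bars. In Psmg2, Psmd6, Psmd14 and Psmc2 all carnitine mice lie above all controls, and in Psma1, Psmd14, Psmg2, Psmd6, Psmc1 and Psmc2 control replicate 5 is the lowest mouse.

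Of the 4 chaperones of core assembly, 3 had a positive difference, and 2 did without control replicate 5. Psmg2 (PAC2), which pairs with Psmg1 to build the alpha ring, had the largest difference of all 47 members. It measured 8.18, 8.37, 8.22, 8.29 and 7.63 in control replicates 1 to 5 and 8.57, 8.53, 8.59, 8.49 and 8.53 in carnitine replicates 1 to 5. The carnitine mice lay between 8.49 and 8.59, above every control, and control replicate 5 lay far below the other controls. Controls averaged 8.14 ± 0.29 and carnitine mice 8.54 ± 0.04 (SD, n = 5 each), and the difference was 0.40 (SE 0.12), 1.32-fold, with a limma adjusted p of 0.712. The difference was 0.31 after cyclic loess and 0.28 without control replicate 5, with the groups still apart in both. A dimmer second probe set of Psmg2, with a mean of 5.32, below the median probe set level of 5.80, did not separate the groups and measured 5.38, 5.34, 5.28, 5.18 and 5.29 in controls and 5.37, 5.30, 5.39, 5.50 and 5.19 in carnitine mice.

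Psmg1, its partner, differed by 0.13 (SE 0.14) with overlapping groups, and by 0.0675 without control replicate 5. Psmg3, of the PAC3-PAC4 pair, was lower on average in carnitine, with 6.65, 6.29, 6.60, 6.83 and 6.87 in control replicates 1 to 5 and 6.48, 6.47, 6.63, 6.56 and 6.38 in carnitine replicates 1 to 5, a difference of -0.14 that was -0.088 without control replicate 5. Psmg4 had a weak signal (mean 5.15) and differed by 0.056, which was -0.009 without control replicate 5. Of the chaperones of the cap base, Psmd5 differed by 0.18 and Psmd10 (gankyrin) by 0.098, which were 0.13 and 0.0065 without control replicate 5. Psmd9 measured 7.22, 7.09, 7.16, 7.27 and 7.50 in control replicates 1 to 5 and 7.28, 7.16, 7.33, 7.19 and 7.04 in carnitine replicates 1 to 5 and differed by -0.048. That sign turned to 0.015 without control replicate 5, whose Psmd9 level was the highest of the 10.

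Of the core, 11 of 14 alpha and beta ring genes had a positive difference (78.6%, median 0.10), against 47.5% of all genes and 82.2% of bright genes. After cyclic loess 8 of 14 were positive (57.1%, median 0.0029), against 50.7% of all genes and 48.8% of bright genes. Without control replicate 5 it was 11 of 14 (78.6%, median 0.028), against 51% and 70%. Groups that did not overlap were found in 0 of 14, against 0.505% of all genes. Psma1, of the alpha ring, had the largest difference in the core. It measured 8.76, 8.95, 8.63, 8.75 and 8.24 in control replicates 1 to 5 and 9.01, 8.90, 9.00, 8.88 and 8.98 in carnitine replicates 1 to 5. Control replicate 2 lay inside the carnitine range, and control replicate 5 far below every other mouse. The difference was 0.29 (SE 0.11, limma adjusted p 0.712), 0.19 after cyclic loess and 0.18 without control replicate 5. Psma2 differed by 0.26, and by 0.13 without control replicate 5, at 8.48 against 9.03 in the next lowest control.

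The remaining alpha ring genes differed less. Psma3, Psma6 and Psma7 differed by 0.044, 0.042 and 0.094, and all 3 signs turned after cyclic loess. The 3 differences were 0.002, 0.0305 and 0.002 without control replicate 5. Psma5, with a mean of 5.82 beside the median probe set level of 5.80, had the largest SE of the members. It measured 5.58, 6.43, 5.51, 5.96 and 5.23 in control replicates 1 to 5 and 6.23, 6.11, 5.52, 5.43 and 6.24 in carnitine replicates 1 to 5. Its groups overlapped throughout, and both the lowest and the highest mouse were controls. The difference was 0.16 (SE 0.22) and 0.036 without control replicate 5. A dimmer second probe set of Psma5 did not show this spread and ran from 5.13 to 5.47 in control and from 5.18 to 5.49 in carnitine. Psma8, the alpha subunit used in the testis, had a weak signal (mean 5.22, under the median probe set) and measured 5.13, 5.10, 5.49, 5.10 and 5.90 in control replicates 1 to 5 and 4.84, 5.29, 5.24, 5.12 and 5.03 in carnitine replicates 1 to 5, a difference of -0.24 that was -0.10 without control replicate 5.

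In the beta ring the differences were 0.11 in Psmb1, 0.11 in Psmb2 and 0.094 in Psmb4, with overlapping groups. These were 0.033, 0.0255 and 0.009 without control replicate 5, and 0.004, 0.0019 and 0.0186 after cyclic loess. Psmb3 was the only beta ring gene besides Psmb5 with a negative value. It measured 6.94, 6.53, 6.83, 6.81 and 6.95 in control replicates 1 to 5 and 6.57, 6.66, 6.85, 6.69 and 6.55 in carnitine replicates 1 to 5, a difference of -0.15 (SE 0.10) that kept its sign after cyclic loess (-0.16) and without control replicate 5 (-0.11). The beta ring means by mouse spread over a similar range in both diets, from 8.51 to 8.84 in control and from 8.58 to 8.86 in carnitine, with replicate 5 the lowest in each.

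**Figure D3:**
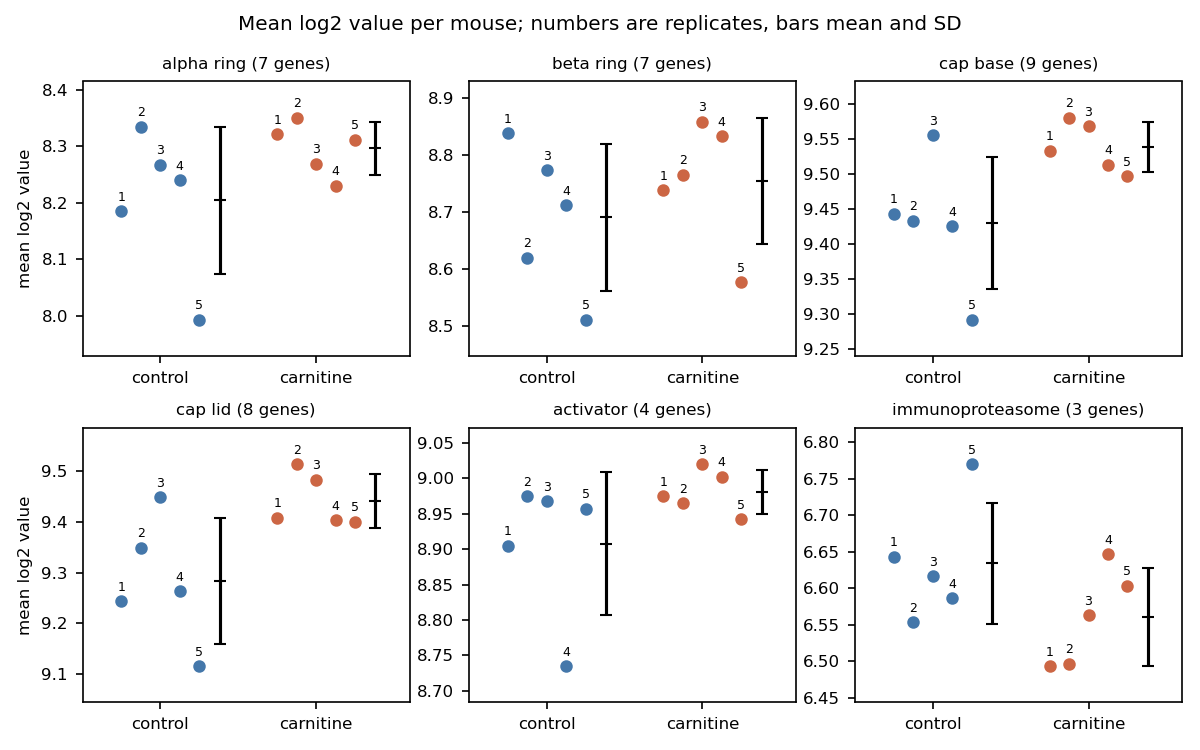
Mean log2 value over the genes of a role in each mouse (points, numbered by replicate), with the group mean and SD as bars. Control replicate 5 is the lowest mouse for the alpha ring, beta ring, cap base and cap lid and the highest for the immunoproteasome.

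In the immunoproteasome the difference was negative in Psmb8 and Psmb9 and positive in Psmb10, 0 of 3 passed the threshold, and the median was -0.068 against -0.008 over all genes. Without control replicate 5 the median was -0.020 against 0.003 over all genes. Psmb9, the interferon-induced counterpart of Psmb6, measured 5.98, 6.02, 5.96, 6.05 and 6.49 in control replicates 1 to 5 and 5.84, 5.81, 5.83, 5.98 and 6.06 in carnitine replicates 1 to 5. Carnitine replicates 1, 2 and 3 lay below every control, and control replicate 5 was the highest of the 10 mice. Controls averaged 6.10 ± 0.22 and carnitine mice 5.90 ± 0.11 (SD, n = 5 each), and the difference was -0.20 (SE 0.11), which was -0.0985 without control replicate 5.

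Psmb8 measured 6.59, 6.57, 6.64, 6.68 and 6.86 in control replicates 1 to 5 and 6.53, 6.62, 6.49, 6.71 and 6.65 in carnitine replicates 1 to 5. The difference of -0.068 (SE 0.088) was smaller than the spread between the mice and was -0.020 without control replicate 5. Psmb10 measured 7.36, 7.07, 7.25, 7.03 and 6.96 in control replicates 1 to 5 and 7.11, 7.06, 7.37, 7.25 and 7.10 in carnitine replicates 1 to 5, with both groups spread over the same range and a difference of 0.044 (SE 0.10) that was 0.0005 without control replicate 5. The thymus subunit gene Psmb11, with a weak signal (mean 5.30), measured 5.03, 5.23, 5.23, 5.43 and 5.64 in control replicates 1 to 5 and 5.09, 5.41, 5.13, 5.39 and 5.39 in carnitine replicates 1 to 5. Its difference of -0.030 turned to 0.043 after cyclic loess and to 0.052 without control replicate 5.

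Their constitutive counterparts were measured on the same arrays. Psmb5, which carries the chymotrypsin-like site, measured 8.93, 8.34, 8.71, 8.61 and 8.43 in control replicates 1 to 5 and 8.46, 8.61, 8.80, 8.73 and 8.38 in carnitine replicates 1 to 5, a difference of -0.008 (95% confidence interval -0.26 to 0.25) that was -0.0515 without control replicate 5. Psmb6 (caspase-like) measured 9.11, 9.09, 9.20, 9.23 and 8.90 in control replicates 1 to 5 and 9.19, 9.19, 9.42, 9.27 and 9.15 in carnitine replicates 1 to 5, a difference of 0.14 (SE 0.088) that was 0.0865 without control replicate 5. Psmb7 (trypsin-like) measured 10.35, 10.10, 10.35, 10.26 and 10.21 in control replicates 1 to 5 and 10.39, 10.47, 10.51, 10.46 and 10.21 in carnitine replicates 1 to 5, a difference of 0.15 (SE 0.084), with 4 of 5 carnitine mice above every control. After cyclic loess the differences of Psmb5, Psmb6 and Psmb7 were -0.107, 0.033 and 0.052.

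The log2 difference of each immunoproteasome subunit from its constitutive counterpart was taken within each array and compared between diets by an exact two-sided permutation test, adjusted over 3 pairs. Psmb9 minus Psmb6 averaged -3.01 ± 0.34 in controls and -3.34 ± 0.18 in carnitine mice (SD, n = 5 each), a shift of -0.33 (exact permutation p = 0.0397, adjusted 0.119). Without control replicate 5, at -2.41 the highest of the 10, the shift was -0.185 (exact permutation, adjusted p = 0.179), and after cyclic loess it was -0.18 (adjusted p = 0.452). Over all alternatives the adjusted p ran from 0.0476 to 0.452. Psmb8 minus Psmb5 shifted by -0.060 (exact permutation p = 0.730, adjusted 0.730), which was 0.0315 without control replicate 5, and Psmb10 minus Psmb7 by -0.11 (exact permutation p = 0.183, adjusted 0.274). With all 10 arrays none of the 3 pairs passed the threshold, and Psmb9 minus Psmb6 passed it without carnitine replicate 5 (shift -0.40, exact permutation, adjusted p = 0.0476). The smallest p that 5 against 5 mice allow is 0.00794.

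**Figure D4:**
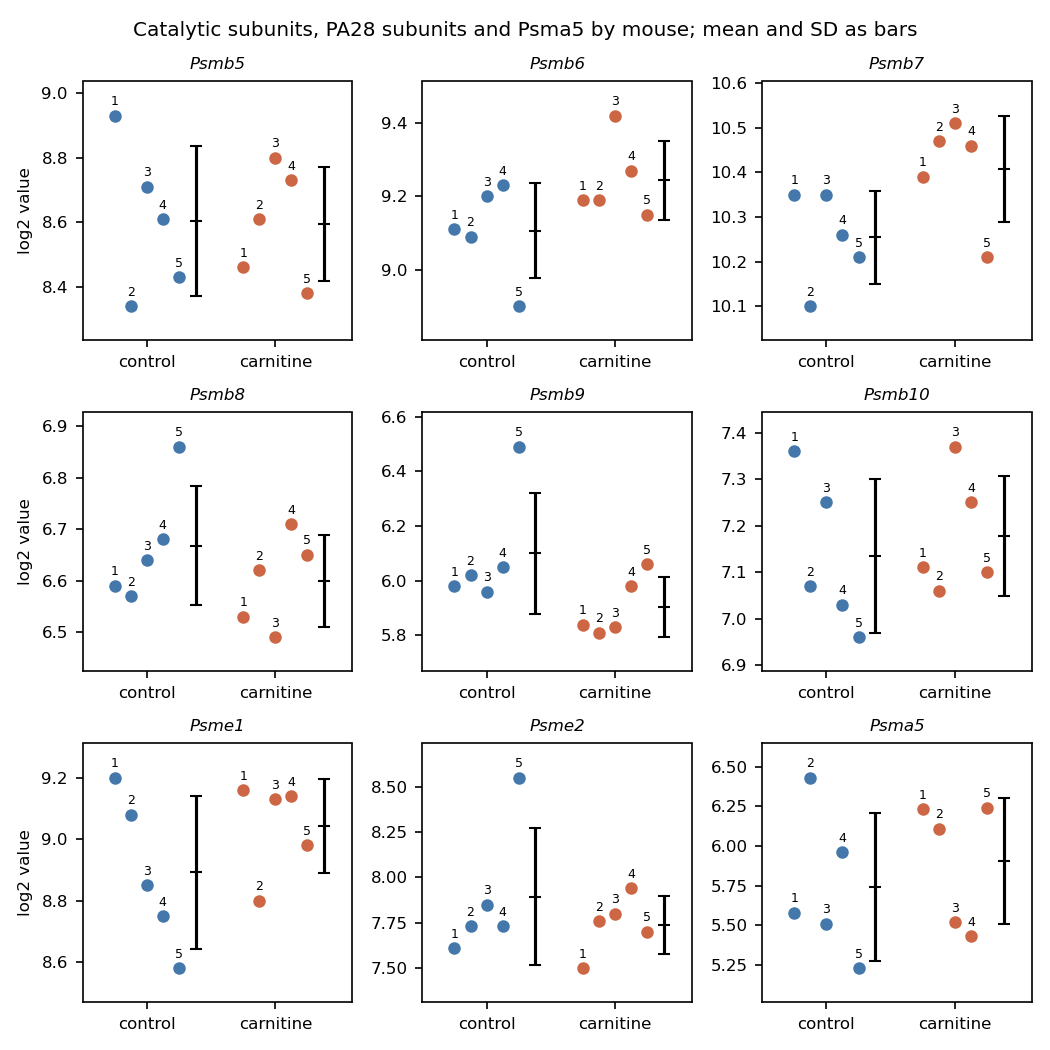
Deposited log2 value in each mouse (points, numbered by replicate) for the constitutive active subunits Psmb5, Psmb6 and Psmb7, their immunoproteasome counterparts Psmb8, Psmb9 and Psmb10, the PA28 genes Psme1 and Psme2, and Psma5, with group mean and SD as bars. Control replicate 5 is the highest mouse in Psmb8, Psmb9 and Psme2, and Psma5 spreads from 5.23 to 6.43 in control and from 5.43 to 6.24 in carnitine.

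Leukocytes express the immunoproteasome at a high level. Of 13 measured leukocyte markers, 10 had a negative difference (median -0.17), with list means from 5.65 to 6.11 in control and from 5.65 to 5.74 in carnitine, and 8 of the 13 were no brighter than the median probe set. Control replicate 5 was again the highest, at 6.11, and without it 7 of 13 were negative (median -0.098). After cyclic loess 5 of the 13 were positive (median -0.12). Of all 22180 genes 11530 had a negative difference, and at levels of 5 to 5.5 the median of all genes was -0.068. The part of leukocytes in the immunoproteasome values was not tested. Of 15 measured genes of MHC class I loading and interferon signalling, the difference was positive in 9 and negative in 6, and 0 of the 15 passed the threshold. It was positive in 10 without control replicate 5, and in 7 after cyclic loess. Tap1, the peptide transporter gene next to Psmb9, differed by -0.10 (SE 0.11), B2m by -0.008 (SE 0.15), and the interferon receptor gene Ifngr2, the smallest p of the list, by 0.23 (SE 0.084).

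Activators bind the core in place of the cap. Psme1 and Psme2 form the interferon-inducible PA28 ring, and they differed in opposite directions. Psme1 measured 9.20, 9.08, 8.85, 8.75 and 8.58 in control replicates 1 to 5 and 9.16, 8.80, 9.13, 9.14 and 8.98 in carnitine replicates 1 to 5, a difference of 0.15 (SE 0.12) with overlapping groups that was 0.072 without control replicate 5. Psme2 measured 7.61, 7.73, 7.85, 7.73 and 8.55 in control replicates 1 to 5 and 7.50, 7.76, 7.80, 7.94 and 7.70 in carnitine replicates 1 to 5. Its difference of -0.15 (SE 0.15) was 0.010 without control replicate 5, which stood at 8.55 against 7.85 in the next control, and -0.23 after cyclic loess.

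Psme3, the nuclear PA28 gamma, measured 8.20, 8.26, 8.34, 8.20 and 8.0 in control replicates 1 to 5 and 8.36, 8.34, 8.41, 8.32 and 8.22 in carnitine replicates 1 to 5, a difference of 0.13 (SE 0.085). Psme4, the nuclear activator PA200, measured 10.61, 10.83, 10.83, 10.26 and 10.70 in control replicates 1 to 5 and 10.88, 10.96, 10.74, 10.61 and 10.87 in carnitine replicates 1 to 5, a difference of 0.17 (SE 0.11). In both the groups overlapped, and the differences were 0.038 and 0.067 after cyclic loess and 0.080 and 0.18 without control replicate 5. Psmf1 encodes PI31, which inhibits the core in the test tube. It measured 7.50, 7.98, 7.60, 8.03 and 7.58 in control replicates 1 to 5 and 8.06, 7.98, 7.91, 8.14 and 8.12 in carnitine replicates 1 to 5. Control replicates 1, 3 and 5 lay between 7.50 and 7.60 and the other controls near 8, inside the carnitine range. The difference was 0.30 (SE 0.11, limma adjusted p 0.712), 0.22 after cyclic loess and 0.26 without control replicate 5.

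**Figure D5:**
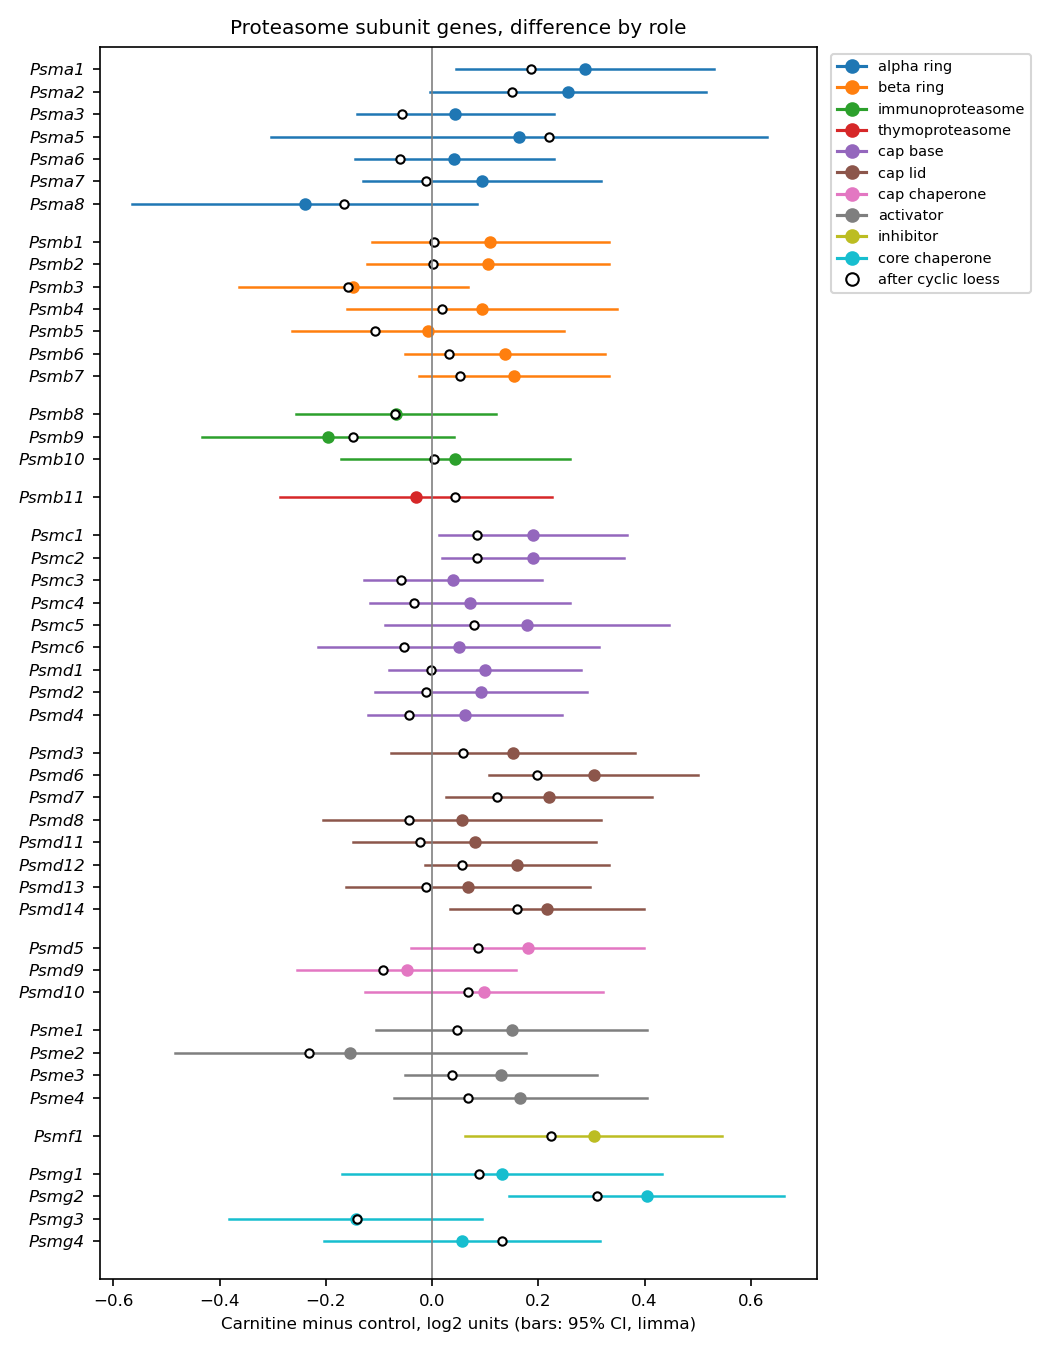
Carnitine minus control in log2 units for each of the 47 proteasome subunit genes, grouped by role, as a filled point with its 95% confidence interval from limma, and as an open point after cyclic loess. All 17 genes of the cap base and lid lie right of 0 in the deposited values, and 8 of them do after cyclic loess.

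Of the 9 members with a negative difference, 8 had their highest level of all 10 mice in control replicate 5. That mouse was the lowest control in 27 of the 38 members with a positive difference and the highest in 0 of them. The sign of a difference includes this mouse, so the split is partly fixed in advance. Over all genes it was the lowest control in 27.4% and the highest in 34.0%, and the lowest in 57.4% of genes brighter than 8. The carnitine mice spread less than the controls in 41 of 47 members (87.2%, against 75.0% of all genes), with a median SD of 0.11 against 0.20. Without control replicate 5 this held in 30 of 47 (63.8%, against 60.9% of all genes). The beta ring genes varied together within the diets, with a median correlation between pairs of 0.60 over the deviations of the 10 mice, and 0.585 without control replicate 5. The cap base genes gave 0.471 and the cap lid genes 0.371, which were 0.441 and 0.164 without control replicate 5. The alpha ring genes gave 0.099, with Psma5 and Psma8, whose signals were weak, among them. No such value was taken over other genes. These correlations share the arrays and are a description.

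Among 9 measured genes of proteins that work with the proteasome, 8 had a positive difference and 0 passed the threshold. Of all genes 47.5% had a positive difference, and of genes brighter than 8 it was 82.2%, though not all of the 9 are that bright. The median difference of the 9 was 0.14, with 0.052 after cyclic loess (7 positive) and 0.12 without control replicate 5 (8 positive). Usp14, a deubiquitinase on the cap, had the largest, from 8.43 ± 0.19 to 8.74 ± 0.15 (difference 0.31, SE 0.11, limma adjusted p 0.712, 0.22 after cyclic loess), and 3 of 5 carnitine mice lay above every control. Zfand2a, named after its values were seen, was the gene of the list whose groups did not overlap, with 6.94 to 7.53 in control and 7.54 to 7.70 in carnitine (difference 0.20, SE 0.11, limma adjusted p 0.721). Uchl5, the other ubiquitin-cleaving partner, differed by 0.27 (SE 0.15) and Pomp, the chaperone of beta ring maturation, by 0.17 (SE 0.089), the latter 0.11 without control replicate 5. Of 7 ubiquitin shuttle and p97 genes, 7 were positive, beside the same shares of all and bright genes. After cyclic loess it was 4 (against 50.7% of all genes and 48.8% of bright genes), and without control replicate 5 it was 7 (against 51% and 70%). The smallest p was that of the segregase gene Vcp (0.14, SE 0.081, 0.047 after cyclic loess). Uba6, a ubiquitin-activating enzyme and the 1 measured gene of the ubiquitin supply list, differed by 0.19 (SE 0.12).

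Of 10 regulators of proteasome genes, 9 had a positive difference (against 47.5% of all genes and 82.2% of bright genes) and 0 passed the threshold. Their means ran from 6.11 to 10.2, so the bright share is not a matched background for this list. After cyclic loess 6 of 10 were positive, and without control replicate 5 it was 8 of 10. The negative value in the deposited data was that of Nfe2l1, the factor that induces proteasome genes when proteasome activity is short, at -0.11 (SE 0.093), which was -0.22 after cyclic loess. Nfe2l2 differed by 0.25 (SE 0.10), Nfyb, a subunit of NF-Y, by 0.37 (SE 0.15) and Ngly1, which processes the Nfe2l1 protein, by 0.20 (SE 0.12). These differences were 0.15, 0.28 and 0.094 after cyclic loess, and that of Ngly1 was 0.10 without control replicate 5. Adrm1, Paaf1 and Ddi2 were not analysed here.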

How the data were processed

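The 10 arrays carry log2 values that the authors made with RMA in Affymetrix Expression Console, per the submitters' processing notes, deposited with 2 decimals for 34390 probe sets. RMA corrects background and normally equalises the probe intensities of the arrays, which hides a change in overall RNA content, and the array medians still ran from 5.72 to 5.96. The sources used here give no version and no genome build. The platform table gives 1 symbol to 23521 probe sets, several to 1814, and does not list 9055. Per gene the probe set with the highest mean was kept. The 2 diets were contrasted with limma 3.58.1 under R 4.3.3 (eBayes with trend, two-sided, Benjamini-Hochberg over 22180 genes, no filter on dim genes), checked on simulated data. The number of arrays limits the precision.

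Of the members and the pathway lists, the choice was made with earlier results of these data known. Values of every mouse are given for the 8 members with the smallest unadjusted p, the active subunits, the activators, Psmf1 and members with a negative difference, and for Psma5, chosen after its values were seen. From each pathway list up to 3 genes with the smallest p and a fixed few were named. The alternatives tried were cyclic loess, median centring, array weights, robust and trend-free variance, a dim-gene filter, the mean of probe sets, the replicate number as a block, and leaving out each array. The background of genes with a mean above 8 and the setting beside slow-fibre genes were chosen after seeing the data.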

Additional observations from a re-analysis of the deposited data

Results flagged for a closer look

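A gap to the nearest mouse of the same diet, larger than Dixon's 95% limit for 5 values, was found in 7 of 94 tests (47 members in 2 diets). Independent normal values would give about 1 in 20. The tests share the same 10 arrays, and the rate over all genes was not computed. The count is therefore no result about the members. Control replicate 5 accounts for 4 of the 7. It was low in Psma2 (8.48, next control 9.03) and in Psmg2 (7.63, next 8.18), and high in Psmb9 (6.49, next 6.05) and in Psme2 (8.55, next 7.85). Carnitine replicate 5 was low in Psmb1 (9.27, next 9.51) and in Psmc3 (8.37, next 8.58). Carnitine replicate 2 was high in Psmd14 (7.62, next 7.49).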

How the results depend on the processing

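No member passed an adjusted p of 0.05 or 0.10 in limma or under any of the 18 alternatives, where the lowest adjusted p was 0.365. Replicate numbers 1 to 5 occur in both diets. The deviations of same-numbered mice correlated at -0.132 to 0.236, and the best match with another number at 0.072 to 0.282. The same number was the better match for replicates 1 and 4. Correlations over 5 numbers cannot tell whether the numbers pair the mice. With the replicate block 0 genes and 0 members passed, and 38 members were positive. The number of genes past the threshold ran from 0 to 1 when arrays were left out in turn, the 1 gene appearing without control replicate 2, while 37 to 40 members stayed positive. The members' median difference was 0.0186 after cyclic loess and 0.148 after median centring. After median centring 41 members were positive (87.2%, against 62% of all genes and 91.3% of genes brighter than 8). When arrays were left out the median ran from 0.0535 (without control replicate 5) to 0.138 (without control replicate 3). Members whose groups did not overlap numbered 4 to 7 on such omissions, with 7 without carnitine replicate 5. Genes with carnitine above control and no overlap also rose without that array, from 112 to 268 of all 22180. Among the 3718 genes brighter than 8 they rose from 49 to 136. The rise to 7 is therefore no result about the members. The Psmb9 minus Psmb6 shift ran from -0.397 to -0.185, and its exact permutation p adjusted over 3 pairs was 0.0476 without carnitine replicate 5. For Psmb8 minus Psmb5 the shift ran from -0.161 to 0.0315 and for Psmb10 minus Psmb7 from -0.143 to -0.065. Of the 47 signs, 29 held in every alternative and 18 turned in at least 1, 13 of them after cyclic loess and 3 after median centring. The cause of these shifts was not tested.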

Other observations

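Slow-fibre genes varied widely between the carnitine mice, and the member levels were set beside them after the values had been seen. The mean of 7 slow-fibre genes was 10.12, 9.12, 9.66, 9.79 and 9.13 in control replicates 1 to 5 and 8.42, 7.45, 9.57, 9.92 and 6.74 in carnitine replicates 1 to 5. Across the 10 mice, 0 of 47 members correlated with the slow-fibre mean after Benjamini-Hochberg adjustment of permutation p values. The diet means were not removed, so each correlation mixes the difference between diets with variation within them. Psmc6, an ATPase gene of the base, had the lowest p for Pearson's r (r = -0.74, permutation p = 0.0189, adjusted 0.508), with rho = -0.659 (permutation p = 0.0448, adjusted 0.345), and r = -0.57 without carnitine replicates 2 and 5. Psme4 had the lowest p for Spearman's rho (rho = -0.86, permutation p = 0.00253, adjusted 0.119), with r = -0.636 (permutation p = 0.0505, adjusted 0.508), and r = -0.584 without those 2 mice.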
